A study of Mus musculus with 46 samples.

Results

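Trib3, Ppp1r15a, Eif4ebp1, Sesn2, Ddit4, Chac1 and Vldlr are feedback and effector genes of the integrated stress response, and their transcripts were followed in islets and livers of mice labelled as lacking Tfam, Clec16a or both mitofusins. The genes were taken by symbol, from a list chosen with earlier results of these data known. Counts of members called therefore describe the set and are not independent evidence for it. They are 7 of the 55487 genes listed in each file, each symbol stands at 1 gene identifier, and all 7 passed the filter on low counts in each of the 14 comparisons made.

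In the integrated stress response, kinases that sense amino acid lack, unfolded protein, heme lack or viral RNA phosphorylate the translation factor eIF2 on its alpha subunit. General translation then falls while the transcription factor ATF4 is made in larger amount, and ATF4, often with CHOP (Ddit3) or a C/EBP partner, switches on target genes. The 7 genes are downstream of this step. Trib3 encodes a pseudokinase that binds ATF4 and AKT, and Ppp1r15a encodes GADD34, which brings a phosphatase to eIF2 so that translation can resume. Eif4ebp1 encodes 4E-BP1, which holds back cap-dependent translation unless mTORC1 phosphorylates it. Sesn2, a leucine sensor, and Ddit4 (REDD1), which acts through the TSC complex, both restrain mTORC1. Chac1 encodes an enzyme that breaks down glutathione, and Vldlr a receptor that takes up triglyceride-rich lipoproteins.

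RNA was sequenced from 46 libraries in 11 groups and 3 experiments. The islets of the first experiment were labelled Tfam control (5 female and 3 male libraries) or Tfam KO (4 female and 2 male libraries). Tfam is needed to package and transcribe mitochondrial DNA. The islets of the second were labelled Clec control or Clec KO, spelled out as Clec16a in the sample descriptions, a gene that regulates the removal of damaged mitochondria. They came from diets given as RFD (4 control and 4 KO libraries) or HFD (6 control and 5 KO libraries). The livers were labelled control (6 libraries), Mfn DKO (4 libraries, Mfn1 and Mfn2 being the mitofusins that join mitochondria) or Tfam KO (3 libraries). Islets had been kept in culture overnight and livers flash frozen. The labels give no age or strain, they do not write out RFD and HFD, they name no promoter or recombinase that drove the deletions, and they give no sex for the Clec16a islets and the livers. The sample descriptions of the livers, controls included, begin with the letters AAV. Libraries are called biological replicates, with nothing on pooling, so the p-values measure the spread between these libraries.

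The libraries of the Tfam islets held 55223041 to 83342809 counts each, those of the livers 41961114 to 56894510, and those of the Clec16a islets, the shallowest, 16235173 to 55810879. The targeted transcripts Tfam, Mfn1 and Mfn2 were lower in the libraries labelled for their loss, with no overlap with controls. Clec16a was not: it lay at 23.4 to 30.0 CPM in the RFD libraries labelled Clec16a KO and at 20.9 to 28.4 CPM in their controls, so the RNA level of this gene does not show the genotype and the groups rest on the labels. The library labelled Clec16a KO HFD replicate 4 stood at control level for 5 of the 7 genes. Tests of the 7 genes against HFD controls, and the largest diet effects in KO, are given with and without it. Genotype by diet, gene lists, markers, covariate fits, TPM levels and the share of all genes called keep it unless stated. Summed β-cell markers made up 247000 to 520000 TPM in islets, and summed hepatocyte markers 41700 to 136000 TPM in livers. In bulk RNA, fewer cells of a type and less RNA per cell cannot be told apart.

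RefSeq promoters, from 250 bases before to 50 bases after a gene's start (build GRCm38.p6), were matched for 6 of the 7 genes, with 2 starts for Vldlr and no entry for Eif4ebp1. ATF4 and C/EBP partners bind an element of the form TGATGNAA (TTNCATCA on the other strand). This pattern was found on one strand or the other in promoters of 3 of the 6 genes and in those of 4.51% of 27025 genes, or 3 of the 7 promoters matched and 3.97% of 32851 promoters of the same length. The 3 that hold it are printed with the match in capitals, since these genes differ from one another in where they rose, and that of Ddit4, which holds no match, is printed beside them. A match describes the letters and is not a shown binding site, and no match covers this window only.
Chac1 promoter, chr2:119350992-119351291, plus strand: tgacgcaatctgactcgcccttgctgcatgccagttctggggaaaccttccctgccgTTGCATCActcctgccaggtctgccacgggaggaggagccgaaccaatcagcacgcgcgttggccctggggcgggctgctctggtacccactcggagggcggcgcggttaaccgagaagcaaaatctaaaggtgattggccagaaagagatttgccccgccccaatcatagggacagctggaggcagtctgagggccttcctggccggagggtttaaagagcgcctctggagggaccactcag
Trib3 promoter, chr2:152344011-152344310, minus strand: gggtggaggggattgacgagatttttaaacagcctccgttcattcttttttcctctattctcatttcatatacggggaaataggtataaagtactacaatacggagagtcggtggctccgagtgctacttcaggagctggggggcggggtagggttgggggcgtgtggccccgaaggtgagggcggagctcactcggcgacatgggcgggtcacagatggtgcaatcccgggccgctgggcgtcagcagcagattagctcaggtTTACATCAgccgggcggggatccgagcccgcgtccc
Vldlr promoter, downstream start, chr19:27216770-27217069, plus strand: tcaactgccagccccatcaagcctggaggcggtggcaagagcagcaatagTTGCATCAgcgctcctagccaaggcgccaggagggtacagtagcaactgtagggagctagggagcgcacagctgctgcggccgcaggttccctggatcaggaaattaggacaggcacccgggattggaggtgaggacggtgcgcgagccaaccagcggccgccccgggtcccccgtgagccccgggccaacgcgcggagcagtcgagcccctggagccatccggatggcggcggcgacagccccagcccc
Ddit4 promoter, chr10:59951721-59952020, minus strand: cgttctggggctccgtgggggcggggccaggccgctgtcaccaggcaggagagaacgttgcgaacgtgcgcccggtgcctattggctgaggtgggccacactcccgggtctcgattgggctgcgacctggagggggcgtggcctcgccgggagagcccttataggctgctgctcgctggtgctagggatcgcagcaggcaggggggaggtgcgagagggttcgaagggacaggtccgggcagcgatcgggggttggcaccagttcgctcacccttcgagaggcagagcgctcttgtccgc

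Counting the start as position 1 and the base before it as position -1, the match begins at -193 in Chac1, at 15 in Trib3 and at -200 from the downstream start of Vldlr. The cAMP response element TGACGTCA was found at -12 in Ppp1r15a and in no other of the 6 genes, against 1.79% of all promoters. TGACGCAA was found at -250 in Chac1, against 0.49% of all promoters. The core hypoxia element ACGTG was found in Ppp1r15a and Ddit4 (19.6% of all promoters), and GCGTG in Chac1, Trib3, Ppp1r15a and Ddit4 (32.4% of all promoters). None of the 5 patterns was found in the Sesn2 promoter or at the upstream start of Vldlr. Searches covered both strands, and ACGTG or GCGTG can share bases with the longer patterns.

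Levels of different genes were compared on the authors' TPM scale, which divides by gene length. In the 4 control islet groups, Trib3 had the lowest mean TPM of the 7 genes, from 2.69 ± 1.31 TPM (SD, n = 3) in Tfam control males to 7.10 ± 5.97 TPM (SD, n = 4) in Clec16a control RFD. Sesn2 had the highest mean TPM in both Clec16a control groups, 58.9 ± 19 TPM (SD, n = 4) on RFD and 53.6 ± 6.71 TPM (SD, n = 6) on HFD. In Tfam control females, Ddit4 at 49.3 ± 12.4 TPM and Sesn2 at 47.6 ± 9.35 TPM (SD, n = 5) did not differ beyond their spread. Control livers had another order: Eif4ebp1 was highest at 41.2 ± 2.17 TPM (SD, n = 6), the next 4 genes lay between 9.84 and 12.7 TPM, within their spread of one another, and Vldlr was lowest at 1.72 ± 1.11 TPM.

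The order changed in the knockout groups. In Tfam KO islets Trib3 had the highest mean TPM of the 7, 239 ± 37.1 TPM (SD, n = 4) in females and 234 ± 25.1 TPM (SD, n = 2) in males, and Vldlr the lowest. In the Clec16a KO RFD group, Sesn2 at 94.7 ± 10.2 TPM and Chac1 at 89.8 ± 6.79 TPM (SD, n = 4) lay within their spread of each other. In Clec16a KO HFD, replicate 4 included, Chac1 at 129 ± 59.9 TPM and Sesn2 at 116 ± 36.6 TPM (SD, n = 5) also lay within their spread. In Mfn DKO livers the highest mean was that of Ddit4, 170 ± 112 TPM (SD, n = 4), but that of Trib3, 106 ± 12.5 TPM, lay within its spread, and in replicate 2 Ddit4 stood at 52.6 TPM against 117 TPM for Trib3. In Tfam KO livers Trib3 had the highest mean, 332 ± 239 TPM (SD, n = 3), with Eif4ebp1 at 183 ± 140 TPM and Ddit4 at 149 ± 36.7 TPM within its spread.

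**Figure D1:**
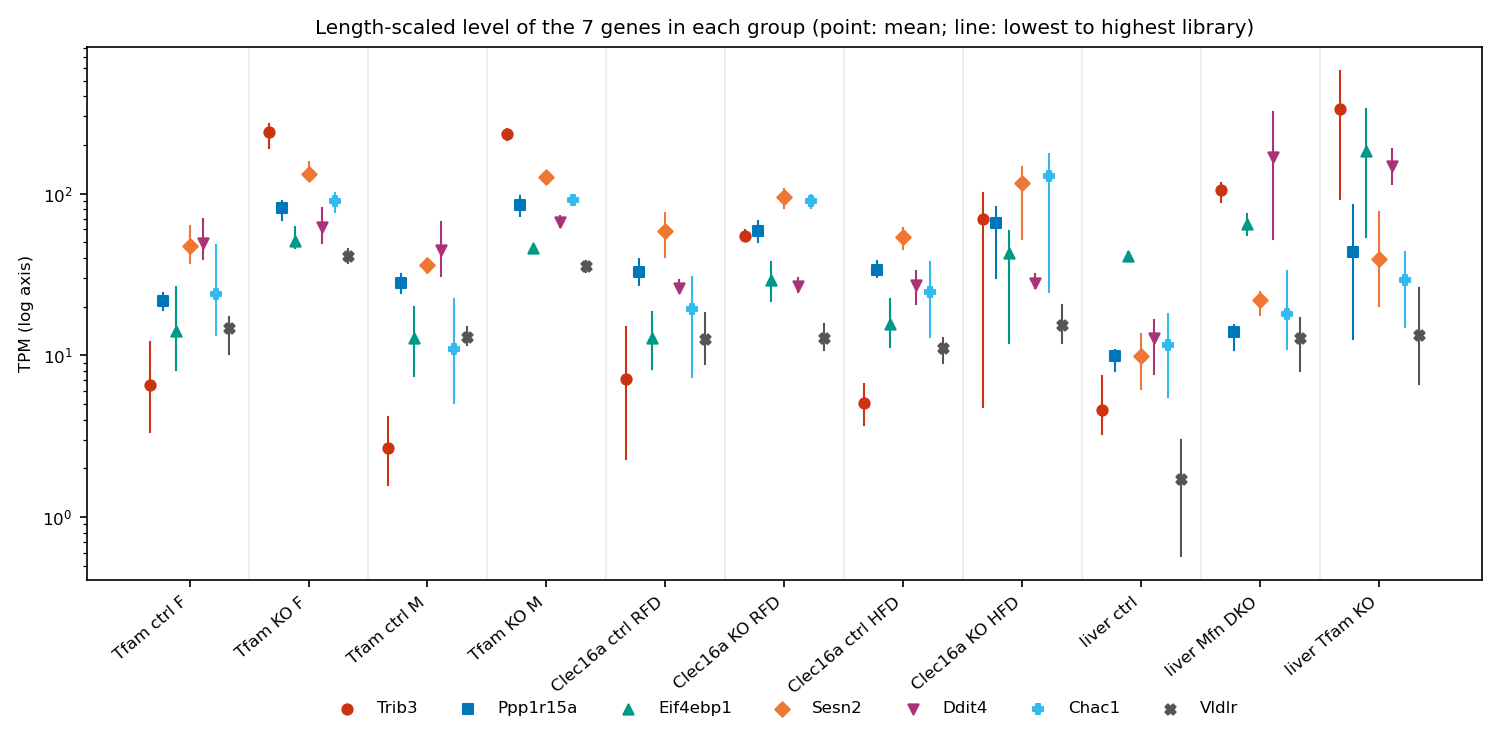
TPM of the 7 genes (log axis) in the 11 groups, as the group mean (symbol) and the lowest to highest library (line). Trib3 moves from the lowest mean in the control islet groups (2.69 to 7.10 TPM) to the highest in Tfam KO islets (239 and 234 TPM), and Eif4ebp1 is the highest of the 7 in control livers (41.2 TPM).

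Changes between groups were tested on the counts with the quasi-likelihood test of edgeR, and a gene was called at a Benjamini-Hochberg adjusted p, over all genes tested, of 0.05 or less. In Tfam KO islets of both sexes together, 6 of the 7 genes rose and none fell, and Ddit4 was the exception. Of all 19752 genes tested there, 11.6% were called higher. The same 6 rose in females, where 6.67% of all genes were called higher, and in males, where 5.24% were. In Clec16a KO islets, 4 of 7 rose on RFD (Trib3, Ppp1r15a, Chac1 and Eif4ebp1, against 3.99% of all genes) and 5 of 7 on HFD (these 4 and Sesn2, against 5.62%). Without Clec16a KO HFD replicate 4 the HFD count stayed at 5 of 7, while the genes called in either direction went from 1652 to 3369.

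In Mfn DKO livers, 3 of 7 rose (Trib3, Ddit4 and Vldlr), against 5.23% of all genes called higher. In Tfam KO livers, 6 of 7 rose, each but Chac1, against 18.1% of all genes. No member was called lower in any of these comparisons. The median log2 fold change of the 7 was 1.41 in Tfam KO islets of both sexes, 0.81 and 0.91 in Clec16a KO islets on RFD and HFD, 0.87 in Mfn DKO livers and 1.39 in Tfam KO livers, while that of all genes tested lay between -0.02 and 0.03. Both liver comparisons used the same 6 controls, so their values are set side by side and not counted as separate support.

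**Figure D2:**
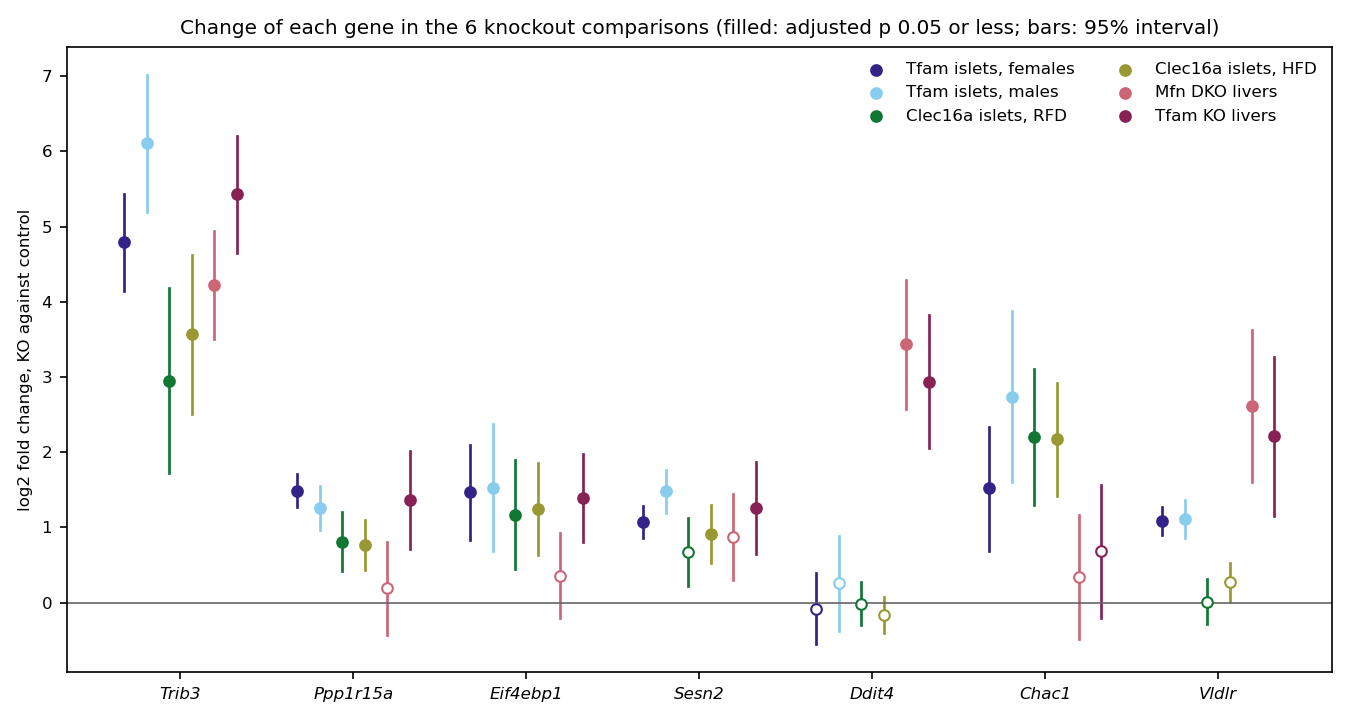
Log2 fold change of each gene, knockout against control, in 6 comparisons (colours), with its 95% interval (bars). Filled points were called by edgeR. Trib3 is called in all 6, Ddit4 only in the livers and Chac1 only in the islets.

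Trib3, the pseudokinase of the ATF4 feedback, lies at chr2:152337422-152344032 on the minus strand (GRCm38, ENSMUSG00000032715). It stood at 11.1, 6.03, 4.82, 7.67 and 3.25 CPM in control females and at 199, 148, 201 and 176 CPM in Tfam KO females, CPM being counts scaled to a common library size. Male islets held 3.92, 1.57 and 2.35 CPM in controls and 173 and 189 CPM in KO. Each KO library lay far above each control library. Trib3 rose 38.1-fold over both sexes (log2 fold change 5.25, SE 0.30, 95% interval 4.62 to 5.89, edgeR adjusted p = 3.66e-09).

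In the Clec16a islets on RFD, Trib3 stood at 2.38, 3.05, 8.25 and 14 CPM in controls and at 59.6, 56.8, 49.9 and 49.5 CPM in KO. The groups did not overlap, and the 2 higher controls were those on sequencing lane 8. Trib3 rose 7.75-fold on RFD (log2 fold change 2.95, SE 0.59, edgeR adjusted p = 0.00653). Without control replicate 4, the highest, the log2 fold change was 3.60 (adjusted p = 0.0114). Within lane 7 the difference in mean log2 CPM was 4.26 (3 KO and 2 control libraries), and within lane 8 it was 2.39 (1 KO and 2 control libraries).

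On HFD, Trib3 ran from 3.64 through a median of 4.98 to 6.98 CPM in the 6 controls and stood at 92.7, 88.9, 58.1, 4.69 and 65.4 CPM in KO. Replicate 4 of the KO, at 4.69 CPM, lay within the controls and the other 4 far above them. The log2 fold change was 3.57 (SE 0.51, edgeR adjusted p = 4.16e-04) with replicate 4 and 3.87 (adjusted p = 1.09e-07) without it.

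In livers, Trib3 ran from 3.22 through a median of 4.13 to 7.21 CPM in the 6 controls. It stood at 73.2, 94.2, 90.3 and 83.8 CPM in Mfn DKO and at 227, 292 and 73.1 CPM in Tfam KO. Each knockout library lay above each control, and replicate 3 of Tfam KO lay just under the Mfn DKO libraries. Trib3 rose 18.6-fold in Mfn DKO (log2 fold change 4.22, SE 0.34, edgeR adjusted p = 2.97e-05) and 43.1-fold in Tfam KO (5.43, SE 0.36, adjusted p = 9.65e-06). By p it ranked 2 of 17024 genes in the Tfam KO livers and 6 in the Mfn DKO livers.

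**Figure D3:**
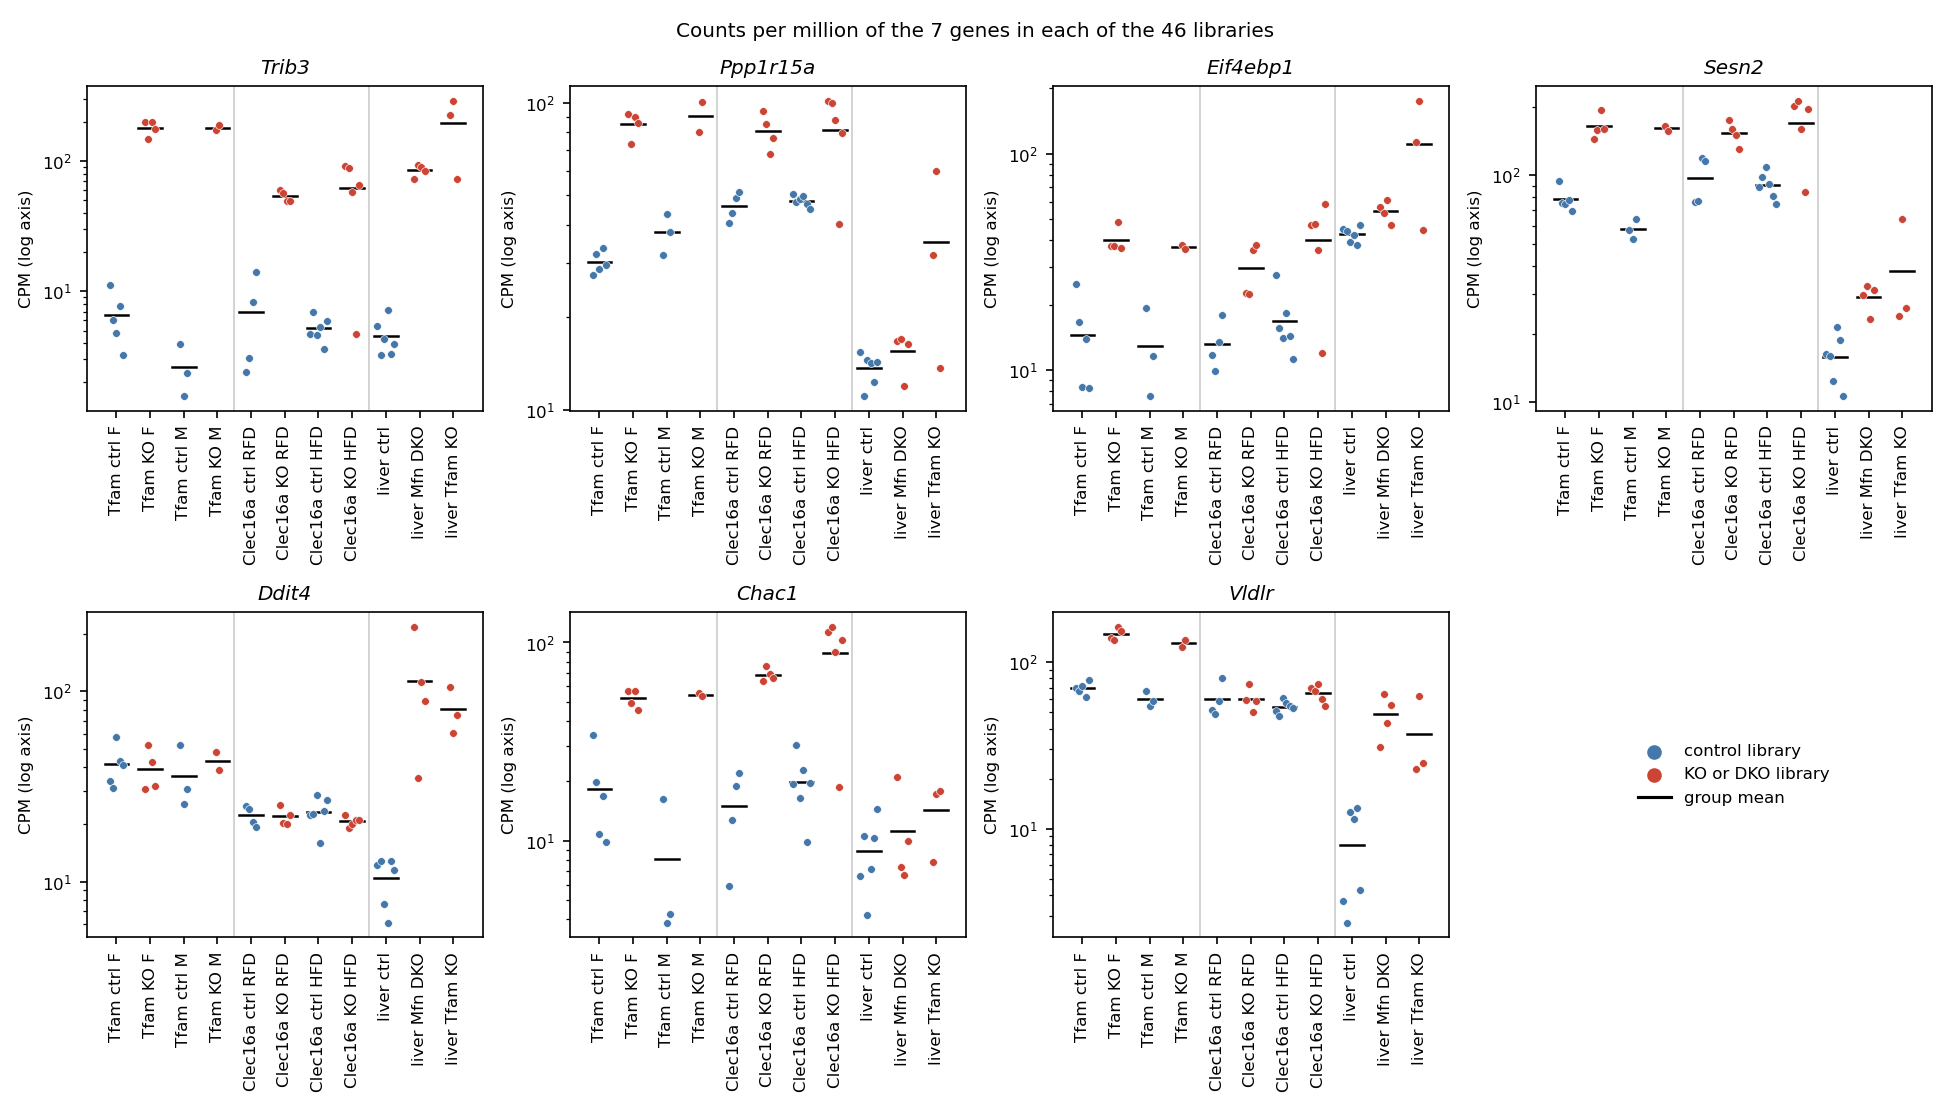
CPM (log axis) of the 7 genes in each of the 46 libraries, with the group mean as a black line, controls in blue and KO or DKO in red. Ddit4 separates the groups in livers and not in islets, and 1 Clec16a KO HFD library, replicate 4, sits among the controls for Trib3 (4.69 CPM) and Chac1 (18.6 CPM).

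Ppp1r15a, whose product GADD34 brings a phosphatase to eIF2, lies at chr7:45522916-45526268 on the minus strand (ENSMUSG00000040435) and shares 717 bases with Tulp2 on the other strand, a gene with at most 45 counts in a library. It stood at 27.4, 32.2, 28.7, 33.6 and 29.5 CPM in control females and at 91.5, 73.1, 89.5 and 85.5 CPM in Tfam KO females. In males it stood at 31.9, 43.5 and 38.0 CPM in controls and at 80.2 and 101 CPM in KO. All 6 KO libraries lay above all 8 controls. The rise was 2.65-fold over both sexes (log2 fold change 1.41, SE 0.08, edgeR adjusted p = 6.98e-09).

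In the Clec16a islets on RFD, Ppp1r15a stood at 40.4, 43.8, 49.0 and 51.2 CPM in controls and at 93.7, 85.4, 68.0 and 76.7 CPM in KO, with no overlap. It rose 1.75-fold (log2 fold change 0.81, SE 0.19, edgeR adjusted p = 0.0128). On HFD it ran from 44.9 through a median of 47.9 to 50.3 CPM in controls and stood at 101, 99.3, 87.5, 40.3 and 79.3 CPM in KO. Replicate 4 of the KO, at 40.3 CPM, was the lowest of all 11 libraries. On HFD the log2 fold change was 0.77 (SE 0.16, edgeR adjusted p = 0.00480) with replicate 4 and 0.94 without it.

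Livers held less Ppp1r15a, from 11.1 through a median of 14.2 to 15.4 CPM in controls. In Mfn DKO it stood at 16.7, 17.0, 11.9 and 16.4 CPM, a log2 fold change of 0.19 (SE 0.29, 95% interval -0.43 to 0.80, edgeR adjusted p = 0.702). In Tfam KO it stood at 31.8, 59.8 and 13.7 CPM, so that replicate 3 lay within the controls. The Tfam KO value was called (log2 fold change 1.37, SE 0.30, edgeR adjusted p = 0.00648), and without replicate 2, the highest, it was 0.74 with an adjusted p of 0.0560.

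Eif4ebp1, which encodes the translation repressor 4E-BP1, lies at chr8:27260329-27276674 on the plus strand (ENSMUSG00000031490). It stood at 25.2, 16.7, 8.40, 14 and 8.34 CPM in control females and at 37.5, 37.7, 48.5 and 36.6 CPM in Tfam KO females. Male islets held 19.4, 7.61 and 11.7 CPM in controls and 38.0 and 36.3 CPM in KO. The KO libraries were closely grouped and lay above all controls, which were more widely spread. Eif4ebp1 rose 2.80-fold over both sexes (log2 fold change 1.49, SE 0.23, edgeR adjusted p = 2.43e-04), while its call in males alone (adjusted p = 0.0249) was lost in 4 of the 5 fits that left out 1 male library.

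On RFD, Eif4ebp1 in Clec16a islets stood at 11.7, 9.94, 13.5 and 18.0 CPM in controls and at 22.8, 22.5, 35.9 and 38.1 CPM in KO. The groups did not overlap, but the gap between the highest control and the lowest KO library was small. The log2 fold change was 1.17 (SE 0.35, edgeR adjusted p = 0.0431), a call lost in 7 of the 8 fits that left out 1 RFD library, with adjusted p up to 0.119, and with lane as a covariate (adjusted p = 0.0810). On HFD it ran from 11.3 through a median of 15.1 to 27.5 CPM in controls and stood at 47.0, 47.2, 35.7, 12.1 and 58.7 CPM in KO, replicate 4 again being within the controls. On HFD the log2 fold change was 1.24 (SE 0.29, edgeR adjusted p = 0.0113) with replicate 4 and 1.48 without it.

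Control livers held more Eif4ebp1 than control islets on the CPM scale, from 37.7 through a median of 43.0 to 46.8 CPM. In Mfn DKO it stood at 57.0, 53, 61.2 and 46.7 CPM, with 1 library just under the highest control. That difference was not called (log2 fold change 0.36, SE 0.26, edgeR adjusted p = 0.386) in the fit of the 3 liver groups, which share 1 estimate of the spread, and was called in the fit of these 2 groups alone (0.36, adjusted p = 0.0148). In Tfam KO it stood at 113, 175 and 44.3 CPM, and replicate 3 lay within the controls. The log2 fold change in Tfam KO was 1.39 (SE 0.27, edgeR adjusted p = 0.00383). It was 0.90 without replicate 2 (adjusted p = 0.0258) and 1.75 without replicate 3.

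Sesn2, the leucine sensor that restrains mTORC1, lies at chr4:132492032-132510501 on the minus strand (ENSMUSG00000028893) and shares 6089 bases with Gm12981, which had at most 38 counts in a library. It stood at 94.4, 75.2, 74.4, 77.4 and 69.9 CPM in control females and at 145, 159, 194 and 160 CPM in Tfam KO females. In males it stood at 57.3, 52.4 and 63.9 CPM in controls and at 165 and 157 CPM in KO. Control males lay under control females, and KO libraries of both sexes lay together above them all. Sesn2 rose 2.32-fold over both sexes (log2 fold change 1.22, SE 0.09, edgeR adjusted p = 1.12e-07).

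In the Clec16a islets on RFD, Sesn2 stood at 76.6, 76.9, 119 and 115 CPM in controls and at 175, 160, 150 and 130 CPM in KO. The groups did not overlap, and the higher 2 controls were those on lane 8. The log2 fold change of 0.67 (SE 0.22, 95% interval 0.22 to 1.12) missed the threshold with an edgeR adjusted p of 0.0644, and the Wald test of DESeq2 gave an adjusted p of 0.0257. The difference in mean log2 CPM was 0.97 within lane 7 and 0.45 within lane 8.

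On HFD, Sesn2 ran from 74.8 through a median of 90.2 to 109 CPM in controls and stood at 201, 213, 159, 84.2 and 195 CPM in KO. Replicate 4 of the KO lay within the controls, and the other 4 lay above them. Sesn2 rose with a log2 fold change of 0.91 (SE 0.18, edgeR adjusted p = 0.00403), or 1.09 without replicate 4.

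Livers held less Sesn2 than islets, from 10.6 through a median of 16.1 to 21.4 CPM in controls. In Mfn DKO it stood at 29.8, 32.4, 23.2 and 31.2 CPM, above each control, and its log2 fold change of 0.87 (SE 0.27, edgeR adjusted p = 0.0539) missed the threshold. With the Wald test of DESeq2 the adjusted p was 0.0192, and in the fit of Mfn DKO and control livers alone it was 0.00518. In Tfam KO it stood at 24, 64.0 and 26.1 CPM, and replicate 2 was far above the other 2. The Tfam KO value was called (log2 fold change 1.26, SE 0.28, edgeR adjusted p = 0.00717) and fell to 0.66 without replicate 2 (adjusted p = 0.0595).

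Ddit4, which encodes the mTORC1 inhibitor REDD1, lies at chr10:59949669-59951834 on the minus strand (ENSMUSG00000020108). In the Tfam islets it stood at 33.9, 31.1, 57.5, 43.2 and 40.8 CPM in control females and at 30.6, 52.0, 42.5 and 31.6 CPM in KO females. Male islets held 52.2, 25.4 and 30.6 CPM in controls and 47.8 and 38.4 CPM in KO. The groups overlapped in both sexes. The log2 fold change over both sexes was 0.04 (SE 0.18, 95% interval -0.33 to 0.42, edgeR adjusted p = 0.909).

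In the Clec16a islets, Ddit4 stood at 25.1, 24.1, 20.6 and 19.3 CPM in RFD controls and at 25.2, 20.4, 20.1 and 22.4 CPM in RFD KO. On HFD it ran from 16.0 through a median of 23.1 to 28.4 CPM in controls and stood at 22.3, 19.2, 20.2, 21.1 and 21 CPM in KO. These groups overlapped as well. The log2 fold changes were -0.02 on RFD (95% interval -0.30 to 0.27) and -0.17 on HFD (95% interval -0.41 to 0.08), with edgeR adjusted p of 0.962 and 0.444. Without KO replicate 4 the HFD value was again -0.17 (edgeR adjusted p = 0.388).

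In livers the same gene separated the groups. Ddit4 ran from 6.08 through a median of 11.8 to 12.8 CPM in controls. It stood at 217, 35.0, 113 and 88.9 CPM in Mfn DKO and at 106, 60.5 and 75.3 CPM in Tfam KO. Each of the 7 knockout livers lay above each control, and the Mfn DKO libraries were widely spread, replicate 2 being the lowest and replicate 1 the highest. Ddit4 rose 10.8-fold in Mfn DKO (log2 fold change 3.44, SE 0.40, edgeR adjusted p = 4.48e-04) and 7.69-fold in Tfam KO (2.94, SE 0.41, adjusted p = 8.38e-04).

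Chac1, the glutathione-degrading enzyme, lies at chr2:119351229-119354381 on the plus strand (ENSMUSG00000027313). It stood at 34.2, 19.7, 10.7, 16.8 and 9.89 CPM in control females and at 57.0, 49.3, 57.2 and 45.5 CPM in Tfam KO females. In males it stood at 16.2, 3.86 and 4.29 CPM in controls and at 55.5 and 53.4 CPM in KO. Controls spread widely, while all 6 KO libraries lay between 45.5 and 57.2 CPM and above each control. Chac1 rose 3.89-fold over both sexes (log2 fold change 1.96, SE 0.34, edgeR adjusted p = 6.38e-04). Its call in females alone (1.52, adjusted p = 0.0195) was lost without KO female replicate 3 (adjusted p = 0.0547).

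In the Clec16a islets on RFD, Chac1 stood at 5.91, 12.7, 19 and 22.0 CPM in controls and at 63.6, 75.7, 69.3 and 65.9 CPM in KO. On HFD it ran from 9.84 through a median of 19.4 to 30.2 CPM in controls and stood at 113, 119, 89.7, 18.6 and 103 CPM in KO. Only replicate 4 of the KO on HFD fell within the controls. Chac1 rose 4.60-fold on RFD (log2 fold change 2.20, SE 0.43, edgeR adjusted p = 0.00611) and 4.50-fold on HFD (2.17, SE 0.36, adjusted p = 0.00127). Without replicate 4 the HFD value was 2.43.

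In livers, Chac1 ran from 4.20 through a median of 8.74 to 14.5 CPM in controls. It stood at 20.9, 7.32, 6.70 and 9.95 CPM in Mfn DKO and at 7.78, 17.1 and 17.8 CPM in Tfam KO. Both knockout groups overlapped the controls, and 1 Mfn DKO library was the highest of all 13. The log2 fold changes were 0.34 in Mfn DKO (95% interval -0.49 to 1.16, edgeR adjusted p = 0.597) and 0.68 in Tfam KO (95% interval -0.21 to 1.57, adjusted p = 0.230). Without replicate 1 of Mfn DKO, the highest, the former was -0.15.

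Vldlr, the lipoprotein receptor, lies at chr19:27216484-27254231 on the plus strand (ENSMUSG00000024924). It stood at 70.4, 67.7, 71.9, 61.6 and 78.3 CPM in control females and at 140, 136, 163 and 155 CPM in Tfam KO females. Male islets held 67.5, 54.4 and 58.3 CPM in controls and 124 and 136 CPM in KO. The libraries of each group lay close together and the groups did not overlap. Vldlr rose 2.13-fold over both sexes (log2 fold change 1.09, SE 0.07, edgeR adjusted p = 9.21e-09).

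On RFD, Vldlr in Clec16a islets stood at 51.9, 48.9, 58.6 and 81.0 CPM in controls and at 59.1, 74.4, 50.1 and 58.5 CPM in KO. On HFD it ran from 47.7 through a median of 54.1 to 61.4 CPM in controls and stood at 69.8, 67.7, 73.8, 60.4 and 54.7 CPM in KO. The groups overlapped on both diets. The log2 fold changes were 0.01 on RFD (95% interval -0.29 to 0.31, edgeR adjusted p = 0.982) and 0.27 on HFD (95% interval 0.01 to 0.53, adjusted p = 0.190). Without KO replicate 4 the HFD value was 0.30 (edgeR adjusted p = 0.124).

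In livers, Vldlr ran from 2.72 through a median of 7.82 to 13.3 CPM in controls. It stood at 31.0, 64.9, 43.3 and 55.6 CPM in Mfn DKO and at 22.7, 63.1 and 25.0 CPM in Tfam KO. Each knockout liver lay above each control. Vldlr rose 6.09-fold in Mfn DKO (log2 fold change 2.61, SE 0.47, edgeR adjusted p = 0.00588) and 4.62-fold in Tfam KO (2.21, SE 0.49, adjusted p = 0.00670). The Tfam KO value was 1.57 with an adjusted p of 0.0514 without replicate 2.

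The control livers fell into separate sets for Vldlr that followed Xist, which marks the inactive X chromosome of female cells. The 3 controls with high Xist held 11.4 to 13.3 CPM of Vldlr, and the 3 with low Xist held 2.72 to 4.27 CPM. In Mfn DKO, the 2 livers with high Xist held 55.6 and 64.9 CPM and the 2 with low Xist held 31.0 and 43.3 CPM. Within either class, the knockout livers lay above the controls. With the Xist level as a covariate, Vldlr had log2 fold changes of 2.83 in Mfn DKO (edgeR adjusted p = 1.76e-04) and 2.06 in Tfam KO (adjusted p = 0.00103). Ddit4 stood the other way round in Mfn DKO, at 35.0 and 88.9 CPM with high Xist and at 113 and 217 CPM with low Xist. These Xist classes were read from the data and were not compared by a test.

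**Figure D4:**
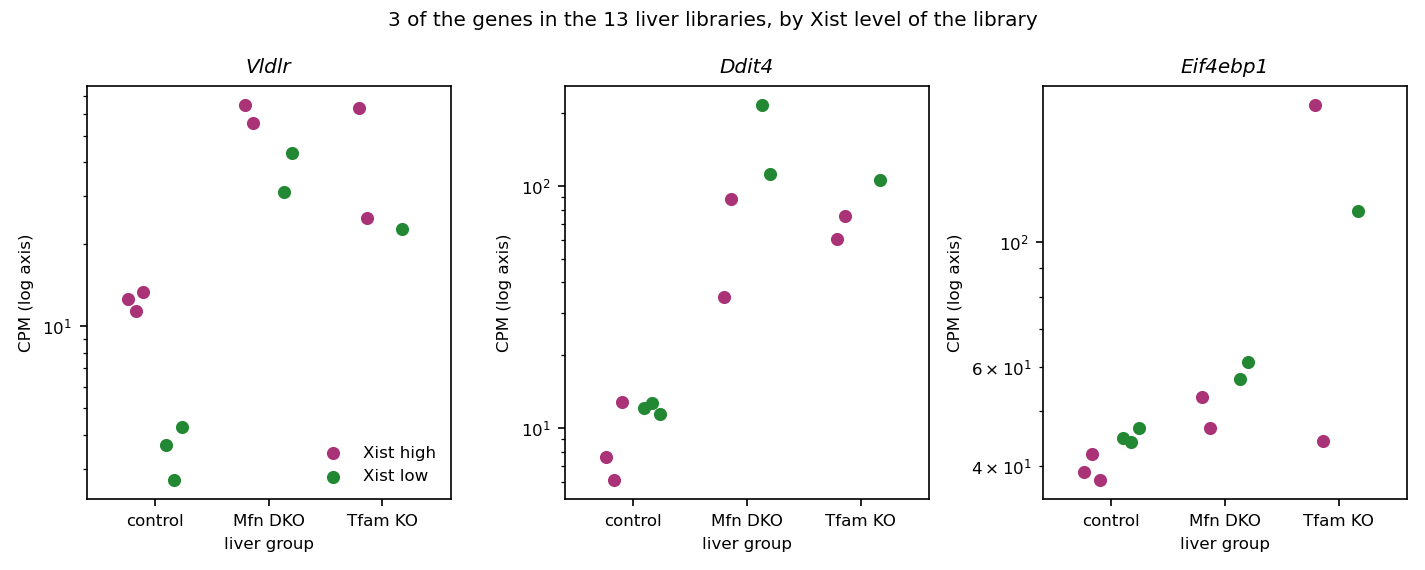
CPM (log axis) of Vldlr, Ddit4 and Eif4ebp1 in the 13 liver libraries by group, coloured by high or low Xist. In controls, Vldlr is 11.4 to 13.3 CPM with high Xist and 2.72 to 4.27 CPM with low Xist, and each knockout liver lies above the controls of its own class.

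Differences between effects were then tested directly. In the Tfam islets, the test of genotype by sex called 0 of the 7 genes and 0% of all 19752 genes with edgeR, against 1230 genes at an unadjusted p under 0.05, and 34 genes with DESeq2, none of them a member. The male effect of Trib3 exceeded the female effect by 1.32 log2 units (SE 0.47, edgeR adjusted p = 0.691), and that of Sesn2 by 0.41 (edgeR adjusted p = 0.735), and these were the 2 members with an unadjusted p under 0.05. The KO libraries of the sexes overlapped for both genes. The male controls lay below all female controls for Sesn2 and overlapped them for Trib3. The other 5 members had unadjusted p of 0.0794 or more.

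The effect of Tfam loss in islets was set against that in livers in a joint fit of all 46 libraries, in which tissue, experiment and the way of deletion cannot be told apart. There 2 of 7 members were called, both lower in islets, against 21.8% of all genes called in either direction. The Ddit4 effect was 2.83 log2 units smaller in islets (difference -2.83, SE 0.37, edgeR adjusted p = 7.13e-07), and the Vldlr effect 1.09 smaller (difference -1.09, SE 0.40, adjusted p = 0.0423). The Vldlr call was lost in 10 of 23 fits that left out 1 library, and its difference was -0.45 without Tfam KO liver replicate 2. The Chac1 effect was larger in islets by 1.47 (SE 0.60) with an adjusted p of 0.0759, and by DESeq2 it was called (adjusted p = 0.0363). For Trib3, Ppp1r15a, Sesn2 and Eif4ebp1, the differences lay between 0.03 and 0.12, with 95% intervals of -1.17 to 1.26, -0.56 to 0.61, -0.57 to 0.64 and -0.77 to 1.01.

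The Tfam effect in islets was also set against the Clec16a effect on RFD, where 1 of 7 members was called, against 5.11% of all genes in either direction. The Trib3 effect was larger with Tfam loss by 2.47 log2 units (SE 0.62, edgeR adjusted p = 0.0124), and by 1.84 (adjusted p = 0.0970) without Clec16a control RFD replicate 4, the control with the most Trib3. The Vldlr effect was larger by 1.07 (SE 0.40, edgeR adjusted p = 0.115). The spread in this joint fit was estimated over all 46 libraries, livers included. In the fits of single experiments the SE of Vldlr was 0.07 with Tfam loss and 0.14 with Clec16a loss on RFD. A missing call here therefore does not show that the effects were equal. Chac1 differed by -0.09, with a 95% interval of -1.28 to 1.09. Experiment and genotype cannot be told apart in this comparison. Sex differed as well: all Clec16a islets had high Xist (302 to 534 CPM), while the Tfam effect was fitted over both sexes. The Trib3 effect in Tfam females alone was 4.79, beside 2.95 on RFD, and the difference between these was not tested.

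In livers, Tfam KO was compared directly with Mfn DKO. With edgeR 0 of 7 members were called, against 0.294% of all genes. Trib3, Ppp1r15a and Eif4ebp1 had the smallest unadjusted p of the 7 (0.00607, 0.00375 and 0.00491), with log2 differences of 1.21, 1.18 and 1.03 toward Tfam KO and adjusted p of 0.117, 0.103 and 0.11. These 3 were called by DESeq2 (adjusted p of 0.0345, 0.0242 and 0.0331), and by edgeR without Tfam KO replicate 3, the liver with the lowest values of all 3 in its group. In that fit the genes called among all tested went from 50 to 4204. Ddit4 and Vldlr were not called, with differences of -0.49 (95% interval -1.48 to 0.49) and -0.40 (95% interval -1.59 to 0.79).

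Diet was compared within genotype. In Clec16a controls 0 of 7 members were called on HFD against RFD, and 0.0406% of all genes, with 973 genes at an unadjusted p under 0.05 and 54 genes called by DESeq2, none of them a member. In Clec16a KO islets 0 of 7 were called, and 0.0116% of all genes, with 946 genes at an unadjusted p under 0.05 and 42 genes called by DESeq2, again no member. The test of genotype by diet called 0 of 7 members and 0% of all genes with edgeR, with 406 genes at an unadjusted p under 0.05 and 20 called by DESeq2. Among members, the diet effects in controls ran from -0.42 (Trib3) to 0.40 (Chac1), and those in KO from -0.08 (Ddit4) to 0.41 (Eif4ebp1), and no member had an unadjusted p under 0.05 in these 3 tests. The values in KO rest in part on HFD replicate 4: without it Eif4ebp1 was 0.65 (SE 0.24), Chac1 0.63 (SE 0.29), Trib3 0.50 (SE 0.34) and Sesn2 0.32 (SE 0.15), still with 0 of 7 called by edgeR (smallest adjusted p of the 4, 0.485 for Eif4ebp1) and with 27 of all genes called in place of 2. Control values split by lane went opposite ways for every member. The differences within lanes 7 and 8 were 0.96 and -1.14 for Trib3, 1.29 and -0.32 for Chac1, and 0.75 and -0.11 for Eif4ebp1. They were 0.36 and -0.51 for Sesn2, 0.21 and -0.09 for Ppp1r15a, 0.07 and -0.32 for Vldlr, and -0.01 and 0.12 for Ddit4. Each lane held 3 HFD and 2 RFD controls, and the split was not tested.

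Other genes of the response were read from lists chosen with earlier results of these data known. Values on HFD for all lists and markers include Clec16a KO HFD replicate 4, the library at control level for most members. For these lists and those below, 11.6% of all genes were called higher in Tfam KO islets of both sexes. The shares were 3.99% and 5.62% in Clec16a KO islets on RFD and HFD, and 5.23% and 18.1% in Mfn DKO and Tfam KO livers. Genes called lower numbered 1834 of 19752 in Tfam KO islets and 610 and 682 of 17254 in Clec16a KO islets on RFD and HFD. In Mfn DKO and Tfam KO livers they numbered 790 and 1919 of 17024. Of 7 transcription factors of the response, 7 rose in Tfam KO islets of both sexes, 5 and 6 in Clec16a KO islets on RFD and HFD, 5 in Mfn DKO livers and 6 in Tfam KO livers. Atf4 itself had log2 fold changes of 0.75, 0.67 and 0.72 in these islets, all called, and of 0.22 (adjusted p = 0.485) and 0.96 (adjusted p = 0.00570) in Mfn DKO and Tfam KO livers. Ddit3, which encodes CHOP, rose by 2.80, 1.64 and 3.15 in Tfam KO islets, Mfn DKO livers and Tfam KO livers, and by 0.76 in Clec16a KO on HFD. On RFD its value was 0.60 (adjusted p = 0.132). Cebpb rose in islets (1.64, 1.58 and 0.98) and was not called in livers (-0.26 and -0.32). Atf3, Atf5 and Nupr1 reached 4.57, 1.42 and 7.12 in Tfam KO livers, and Cebpg rose in all 5 comparisons by 0.68 to 0.96.

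Of 36 further targets of the response, such as amino acid transporters, synthetic enzymes and tRNA synthetases, 27 rose and 0 fell in Tfam KO islets (median 0.88). The counts were 23 and 0 in Clec16a KO on RFD, 20 and 0 on HFD, 16 and 0 in Mfn DKO livers, and 27 and 1 in Tfam KO livers (median 1.94). The largest of these by p were Lonp1 (1.83), Eprs (1.21) and Aldh1l2 (2.44) in Tfam KO islets, and Psat1 (7.19), Lonp1 (1.95) and Phgdh (7.19) in Tfam KO livers. Of 12 genes for the kinases and the subunits of eIF2 and its exchange factor, 1 rose and 2 fell in Tfam KO islets, none was called in Clec16a KO islets or Mfn DKO livers, and 5 rose and 1 fell in Tfam KO livers. Of 19 chaperones and degradation genes of the endoplasmic reticulum, 2 rose and 7 fell in Tfam KO islets (median -0.28), none was called in Mfn DKO livers, 0 rose and 2 fell in Tfam KO livers, and 1 rose on each diet in Clec16a KO (Sel1l).

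The members also respond to other signals, so lists for these were read beside them. Of 12 targets of p53, which also regulates Sesn2, 10 rose and 1 fell in Tfam KO islets, 2 and 2 rose in Clec16a KO on RFD and HFD, 3 rose in Mfn DKO livers and 11 in Tfam KO livers. Of 9 glucocorticoid targets, 3 rose in each liver comparison, namely Sgk1 (2.67 in Mfn DKO and 2.99 in Tfam KO), Mt2 (3.88 and 3.38) and Mt1 (2.65 and 2.5). In islets 0 rose and 2 fell with Tfam KO, and 1 rose on each diet with Clec16a KO (Sgk1). Of 13 hypoxia targets, 4 rose and 3 fell in Tfam KO islets, 1 and 3 rose in Clec16a KO on RFD and HFD, 0 rose and 2 fell in Mfn DKO livers, and 3 rose and 1 fell in Tfam KO livers. Of the NRF2 targets, 6 of 10 rose in Tfam KO islets, 4 of 10 on each diet in Clec16a KO islets, and 3 and 6 of 11 in Mfn DKO and Tfam KO livers. Of 22 mTORC1 pathway genes, 6 rose and 1 fell in Tfam KO islets, 1 rose in Clec16a KO on RFD and 0 on HFD, 1 rose and 1 fell in Mfn DKO livers, and 5 rose in Tfam KO livers. In Tfam KO livers the hypoxia and mTORC1 counts lay near the 18.1% of all genes called higher. The part of these lists in the members' changes was not tested.

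Paralogues of the members were read in the same way. Of 11 paralogues, 1 rose and 2 fell in Tfam KO islets, 0 were called in Clec16a KO on RFD, 1 fell on HFD, 0 were called in Mfn DKO livers, and 2 rose and 2 fell in Tfam KO livers. Trib1, another Tribbles pseudokinase, fell by 1.33 on the log2 scale in Tfam KO islets and by 0.87 in Tfam KO livers, while Trib3 rose in both. Trib2 was not called in the 5 comparisons (0.04 to 0.36). Ppp1r15b, the constitutive partner of the eIF2 phosphatase, rose by 0.21 in Tfam KO islets (edgeR adjusted p = 0.0491), and Sesn1 fell by 0.32. In Tfam KO livers, Ddit4l and Lrp8, relatives of Ddit4 and Vldlr, rose by 2.40 and 2.36, and Eif4ebp2 fell by 0.92. Sesn3, Chac2 and Eif4ebp3 were not called in any of the 5.

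The genes with log2 fold changes closest to those of each member were found over 6 knockout comparisons, among 13117 genes, as a description. The measure was the root mean square difference, which was not scaled for the size of the effects. Ppp1r15a was nearest to Eprs, a tRNA synthetase (difference 0.26), and to Eif4ebp1 (0.28). Eif4ebp1 was nearest to Snhg12 (0.26) and Pqlc3 (0.26), and Sesn2 to Igsf11 (0.26) and Zbtb18 (0.28). Ddit4 was nearest to Fam83f (0.25), whose log2 fold change in Mfn DKO livers was 3.08. Vldlr was nearest to Spag5 (0.18) and Plppr1 (0.40), and Chac1 to Nckap5 (0.49). Trib3 had no near gene by this measure: its nearest were Nupr1 (1.36) and Stc2 (1.5), and each other member lay at least 3.22 away from it. Its large fold changes set it apart here, and the shape of its pattern was not compared separately. The 2 liver comparisons share their controls.

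Markers of cell types were followed across the same groups. Summed acinar markers (10 genes) ran from 1610 to 37800 TPM in islets, and none of the 10 was called in the Tfam or Clec16a knockout comparisons. With the acinar level as a covariate, the counts of members that rose stayed at 6, 4 and 5 in Tfam KO islets of both sexes and Clec16a KO islets on RFD and HFD. All 8 β-cell markers fell in Tfam KO islets, from 322000 to 455000 summed TPM in controls to 247000 to 312000 in KO. In Clec16a islets on RFD their median sum was 405000 TPM in controls and 380000 TPM in KO. On HFD it was 450000 and 375000 TPM, and the groups overlapped on both diets. In the Tfam islets, endothelial markers summed to 144 to 202 TPM in control females and 204 to 247 TPM in KO females. In males they summed to 168 to 194 TPM in controls and 249 to 270 TPM in KO. The sums did not overlap within a sex, and 1 of 6 was called higher. Macrophage markers in the Tfam islets overlapped in females, at 207 to 342 TPM in controls and 278 to 355 TPM in KO. In males they went from 187 to 207 TPM in controls to 393 to 396 TPM in KO. Over both sexes, 1 of 6 tested was called higher. The TPM scale itself moved between these genotypes. Ddit4, with a log2 fold change of 0.04 in counts, had mean TPM of 49.3 in control and 62.5 in KO females. In males its means were 44.9 and 67.2 TPM. How much of the endothelial difference this scale accounts for was not tested. In Clec16a KO islets, 5 of 6 endothelial markers rose on each diet, with summed levels of 194 to 241 TPM in controls and 377 to 465 TPM in KO on RFD, and 186 to 282 TPM and 228 to 558 TPM on HFD. Of the fibroblast markers, those that rose were 2 of 7 on RFD and 4 of 7 on HFD, at summed levels of at most 42.0 TPM. In livers, 3 of 8 hepatocyte markers fell in Tfam KO and 0 in Mfn DKO, and macrophage markers ran from 497 to 1070 TPM in controls, 843 to 1620 TPM in Mfn DKO and 630 to 1190 TPM in Tfam KO, with 0 of 7 called. Fibroblast and stellate markers summed to 83.6 to 121 TPM in control livers and 135 to 162 TPM in Mfn DKO (2 of 8 called higher). In Tfam KO livers they summed to 137 to 152 TPM (1 called higher and 1 lower). Neither knockout overlapped the controls, but the TPM scale moved here too. Eif4ebp1 at 46.8 CPM in control replicate 6 was 43.4 TPM. At 46.7 CPM in Mfn DKO replicate 4 it was 55.6 TPM, and at 44.3 CPM in Tfam KO replicate 3 it was 54.3 TPM. How much of the difference in sums this scale accounts for was not tested. Endothelial markers summed to 89.5 to 127 TPM in controls, 117 to 194 TPM in Mfn DKO and 131 to 206 TPM in Tfam KO, with 0 of 6 called in either. In livers Ins1, Iapp, Nkx6-1 and Gcg were listed at 0 in each group. The part of these shifts in the members' changes was not tested.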

How the data were processed

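Bulk RNA of 46 libraries in 3 experiments was analysed from 1 table per library. Each table lists 55487 genes with raw counts, CPM and TPM columns that the authors deposited, per the file headers. The submitters' processing notes name STAR 2.6.1b, RSEM 1.3.1, featureCounts, FastQC, MultiQC and DESeq2 with the build GRCm38, without saying which tool made which column, and the strand setting of the counting is not given in the sources used here. The counts as deposited were scaled by TMM and tested with the quasi-likelihood test of edgeR 4.0.16 (R 4.3.3, limma 3.58.1), with 1 fit for each experiment and 1 joint fit for the effects compared across experiments, after edgeR's filter on low counts. Calls were made at a Benjamini-Hochberg adjusted p of 0.05 or less over all genes tested. CPM in the text were computed from the counts with TMM-scaled library sizes, and TPM were taken as the authors deposited them.

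The 7 genes and the gene lists were chosen with earlier results of these data known. Genes outside the 7 were named by rule: the targeted genes and Xist, all paralogues and transcription factors listed, at most 3 called genes of any other list by adjusted p, and for each member the 2 genes nearest in log2 fold change among genes with a mean of at least 1 CPM. Some genes that this rule selects are not reported here. Alternatives were DESeq2 1.42.0, its size factors, filters on low counts (none, or at least 10 counts in every library), fits of the compared groups alone, no sex term, the replicate number as a block, lane, Xist or acinar covariates, and leaving out each library in turn. For same-numbered libraries, the median correlation of deviations was 0.0653, -0.0163 and 0.0873 in the Tfam islets, Clec16a islets and livers. It exceeded 0.1 in 6 of 16, 3 of 25 and 5 of 10 pairs, so a shared deviation of some pairs was not excluded. No libraries were identical. Gene positions are those of GENCODE M21, and sequencing lanes of the Clec16a islets were read from the names of the deposited tables. The test was also tried on simulated data, with an outcome that is not reported here.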

Additional observations from a re-analysis of the deposited data

Results flagged for a closer look

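In the Clec16a KO HFD group, replicate 4 stood far from the other 4 libraries for 3 genes: Trib3 at 4.69 CPM against 58.1 to 92.7 CPM, Ppp1r15a at 40.3 CPM against 79.3 to 101 CPM, and Chac1 at 18.6 CPM against 89.7 to 119 CPM. Ppp1r15a in Mfn DKO liver replicate 3 was 11.9 CPM against 16.4 to 17.0 CPM in the others. Eif4ebp1 in Tfam KO female replicate 3 was 48.5 CPM against 36.6 to 37.7 CPM. Such a gap arises by chance in about 1 in 20 groups, and 56 combinations of group and gene were examined. Groups with fewer than 4 libraries, namely the Tfam KO livers and the male Tfam islets of either genotype, were not examined.

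For 3 genes the effect of a knockout differed between settings in edgeR's test of the difference. The Tfam effect in islets minus that in livers was -2.83 for Ddit4 and -1.09 for Vldlr on the log2 scale. These were 2 of 7 members, beside 21.8% of all genes called, and the Vldlr call was lost in 10 of 23 fits without 1 library. The Tfam effect minus the Clec16a effect on RFD in islets was 2.47 for Trib3, 1 of 7 members beside 5.11% of all genes. That call was lost without Clec16a control RFD replicate 4 (edgeR adjusted p = 0.0970) and with the replicate block (edgeR adjusted p = 0.0568). Experiment cannot be told apart from tissue or genotype in these tests.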

How the results depend on the processing

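With all libraries kept, the count of members called moved by more than 1.5 times in 4 comparisons. It was 5 of 7 in Mfn DKO livers when only these and the controls were fitted, 3 in Tfam KO against Mfn DKO livers with the Wald test of DESeq2, and, with the replicate block, 2 in Tfam KO livers and 0 in the Tfam effect minus the Clec16a effect. Smaller shifts were RFD from 4 to 5 with DESeq2 and to 3 with the block or lane, HFD from 5 to 4 with the block, Mfn DKO from 3 to 4 with DESeq2 and to 2 with the block, and islets minus livers from 2 to 3 with DESeq2. Without 1 library each, the counts ran from 3 to 6 in Tfam KO livers (3 without Tfam KO replicate 2), 0 to 3 in Tfam KO against Mfn DKO, 1 to 3 in islets minus livers and 0 to 1 in the Tfam minus Clec16a effects. Whether the replicate numbers pair libraries is not known, and a shared deviation of some same-numbered libraries was not excluded. Calls lost with the block are therefore given as a limit of those calls. Depth and 2 to 6 libraries a group limit the precision.

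Changes of sign touched only values that were not called. Vldlr on RFD was -0.11 with the acinar covariate. With the replicate block, genotype by diet was 0.01 for Chac1 and -0.04 for Eif4ebp1. Without 1 library each, genotype by diet ran from -0.29 to 0.23 for Chac1, -0.11 to 0.31 for Eif4ebp1, -0.13 to 0.13 for Ppp1r15a and -0.03 to 0.92 for Trib3. Diet in controls ran from 0.00 to 0.11 for Ppp1r15a, -0.19 to 0.03 for Sesn2, -0.69 to 0.23 for Trib3 and -0.23 to 0.03 for Vldlr, and diet in KO from -0.08 to 0.18 for Ppp1r15a. The Tfam minus Clec16a effects ran from -0.35 to 0.41 for Chac1 and -0.01 to 0.27 for Ddit4. Islets minus livers ran from -0.26 to 0.63 for Eif4ebp1, -0.37 to 0.66 for Ppp1r15a, -0.22 to 0.64 for Sesn2 and -0.36 to 0.45 for Trib3. Tfam KO against Mfn DKO ran from -0.79 to 0.03 for Ddit4 and -0.22 to 0.63 for Sesn2. Genotype by sex ran from -0.23 to 0.48 for Eif4ebp1 and -0.04 to 0.12 for Vldlr. Ddit4 ran from -0.04 to 0.14 in Tfam KO islets of both sexes, -0.24 to 0.07 in females and -0.08 to 0.04 on RFD. Vldlr on RFD ran from -0.10 to 0.19, and Chac1 in Mfn DKO livers from -0.15 to 0.52. The cause was not tested.

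Among all genes, those called in Mfn DKO livers numbered 1681, against 2870 with DESeq2, 4338 with only the 2 groups and 169 with the replicate block. In Tfam KO livers they numbered 4992, against 3228 with only the 2 groups and 395 with the block, and 2504 without Tfam KO replicate 2 or 7330 without replicate 3. Tfam KO against Mfn DKO gave 50, against 1087 with DESeq2, 7 with only the 2 groups, 6 with the block and 4204 without Tfam KO replicate 3. Islets minus livers went from 4745 to 2103 without Tfam KO liver replicate 2. The HFD count of 1652 became 975 with the block and 3369 without KO replicate 4, and ran down to 786 without KO replicate 3. The RFD count of 1298 ran down to 523 without control replicate 3, that of Mfn DKO to 686 without Mfn DKO replicate 1, and that of Tfam KO males to 578 without KO male replicate 2. With DESeq2, the males went from 1764 to 2708 and the Tfam minus Clec16a effects from 1113 to 1771.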
